A study of Mus musculus with 6 samples.

Results

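Hox genes encode homeodomain transcription factors that stand in 4 chromosomal clusters and keep a record of position along the body and gut. They were followed here as every gene named Hoxa, Hoxb, Hoxc or Hoxd with a paralogue number, read by name and with no measured value used. Of 39 such genes in the mouse annotation, 37 had a probe set that names them alone, out of 19533 genes measured. The members comprise 10 Hoxa genes on chromosome 6, 9 Hoxb genes on chromosome 11, 9 Hoxc genes on chromosome 15 and 9 Hoxd genes on chromosome 2. Each was read by a single probe set. Hoxb8 was represented only by a probe set that also names Hoxb7.

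Live EpCAM+ epithelial cells had been sorted from the large intestine. All mice were C57BL/6 and germ-free, that is, raised without microbes. In HDAC3ΔIEC mice (n = 3) the histone deacetylase gene Hdac3 is deleted in intestinal epithelial cells, and the controls were HDAC3FF mice (n = 3), also germ-free. The labels and the design text name no Cre driver, age or sex. RNA of each mouse was read on 1 Affymetrix array, and all values below are log2 signals, on which a difference of 1 is a doubling. The Hdac3 probe set read 6.58, 6.22 and 6.00 in HDAC3ΔIEC arrays, against 6.96, 7.36 and 7.04 in HDAC3FF arrays. This is a log2 fold change of -0.86 ± 0.17 (moderated SE, n = 3 per group), without overlap of the genotypes and with a limma adjusted p of 0.0937. The files do not say where this probe set lies relative to the deleted part of the gene. The epithelial marker Epcam averaged 10.85 ± 0.11 in HDAC3ΔIEC and 10.91 ± 0.13 in HDAC3FF cells (SD, n = 3 each), and Vil1, a brush border protein, averaged 11.15 ± 0.05 in HDAC3ΔIEC and 10.97 ± 0.25 in HDAC3FF cells. Of the 8 epithelial markers read, 6 had a log2 fold change above 0 and 2 below, with a median of 0.22. The keratins Krt8, Krt18, Krt19 and Krt20 were higher in HDAC3ΔIEC by 0.26, 0.53, 0.30 and 0.41, without overlap. The genotypes thus did not overlap for 4 of the 8, against 16.2% of all genes. None of the 8 had a limma adjusted p under 0.05.

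Within each cluster, Hox genes lie in the order in which they are used from the front to the back of the body, a property called collinearity. Low paralogue numbers mark anterior positions and high numbers posterior ones, and the posterior members, including Hoxd13 and Hoxa13, pattern the hindgut and its end in the mouse embryo. Their on and off states are held by Polycomb and Trithorax group proteins, which modify histones, while HDAC3 removes acetyl groups from histones as part of the NCoR and SMRT corepressor complexes. The comparison therefore asks whether the positional code of colonic epithelium differed between mice without and with epithelial HDAC3.

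No Hox gene passed the test. At a limma adjusted p under 0.05 the genotypes differed in 137 of 19533 genes, or 0.701%, and 0 of the 37 Hox genes were among them. In HDAC3ΔIEC cells 72 genes were higher (0.369%) and 65 lower (0.333%). At an unadjusted p under 0.05, 5 Hox genes remained (13.5% of the members), against 11.2% of all genes. They were Hoxc5 and Hoxc6 with positive log2 fold changes (5.41% of members, 5.38% of all genes) and Hoxa3, Hoxb9 and Hoxd10 with negative ones (8.11% of members, 5.84% of all genes). The genotypes did not overlap for 5 Hox genes (13.5%), against 16.2% of all genes. Of these, Hoxc5 and Hoxc12 lay higher in HDAC3ΔIEC (5.41% of members, 8.45% of all genes) and Hoxa3, Hoxb9 and Hoxd10 lower (8.11% of members, 7.7% of all genes). Those shares lie near the background of the whole array. Each sample is RNA from a mixed population of sorted cells, so fewer cells of a type and less RNA per cell cannot be told apart in any of these values.

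The median log2 fold change over the Hox genes was -0.02, with 17 members above 0 and 20 below (54.1%), and it was 0.01 over all genes, of which 46.5% were below 0. Members ranged between -0.81 for Hoxd10 and 0.28 for Hoxc6. The width of the intervals says how large a difference in signal these arrays leave possible. For dim probe sets, such as those of the Hoxc genes, it need not bound the difference in RNA. For 27 of the 37 members (73%) the 95% interval lay within 0.5 of 0 on the log2 scale in both directions, against 72.1% of all genes. For 35 members (94.6%) it lay within 1, against 95.6% of all genes. The exceptions were Hoxd10 and Hoxd13, whose intervals reached -1.31 and -1.01. A log2 fold change of 0.3 or more in size was measured for 3 Hox genes (8.11%), namely Hoxd10, Hoxd13 and Hoxa9, against 12.4% of all genes. Only Hoxd10 (2.7%) reached 0.5 in size, against 4.67% of all genes.

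**Figure D1:**
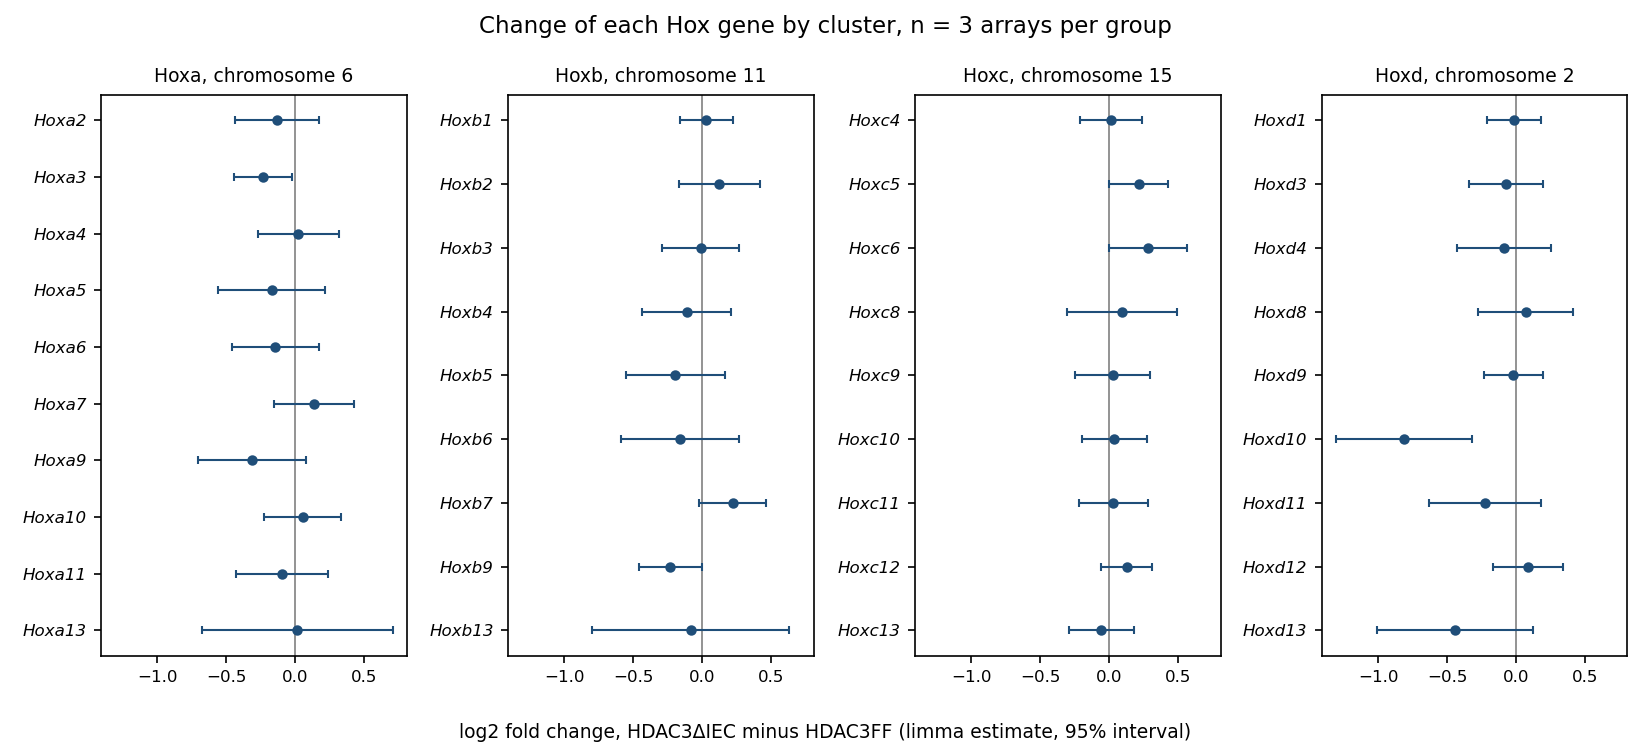
Log2 fold change of HDAC3ΔIEC over HDAC3FF for each of the 37 Hox genes, in 1 panel per cluster, with members in order of paralogue number. Points are limma estimates and bars are 95% intervals (n = 3 arrays per group). Most intervals cross 0, the estimate farthest from 0 is Hoxd10 at -0.81, and no member passed an adjusted p of 0.05.

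Grouped by position, the 11 anterior genes of paralogue groups 1 to 4 had a median log2 fold change of -0.02, with 4 members above 0 and 7 below. The 10 central genes of groups 5 to 8 had a median of 0.08, with 6 above 0 and 4 below. The 16 posterior genes of groups 9 to 13 had a median of -0.04, with 7 above 0 and 9 below. By cluster, the medians were -0.12 for Hoxa, -0.09 for Hoxb, 0.04 for Hoxc and -0.07 for Hoxd. These groups describe the members and were not tested, since genes of a cluster are not independent replicates.

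The Hoxd cluster held the members farthest from 0. Hoxd10, a posterior gene, read 4.76, 4.79 and 4.75 in HDAC3ΔIEC arrays, against 5.08, 5.98 and 5.68 in HDAC3FF arrays. All 3 HDAC3ΔIEC arrays lay below every HDAC3FF array, and they spanned 0.0389 while the HDAC3FF arrays spanned 0.899. The log2 fold change was -0.81 ± 0.21 (95% interval -1.31 to -0.32, n = 3 per group), which puts the HDAC3ΔIEC signal at 56.9% of the HDAC3FF signal. The limma p was 0.00556, and adjusted over all genes it was 0.168. With 3 arrays per genotype the exact two-sided permutation p cannot go below 0.1, and it was 0.1 here. The size depended on the control arrays: it was -1.06 without HDAC3FF replicate 1 and -0.61 without HDAC3FF replicate 2.

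Hoxd13, the last gene of the cluster, is needed for the terminal hindgut and the digits in the mouse. It read 6.21, 6.00 and 6.12 in HDAC3ΔIEC arrays, against 6.00, 7.04 and 6.62 in HDAC3FF arrays. The genotypes overlapped, because HDAC3FF replicate 1 was as low as the HDAC3ΔIEC arrays. The log2 fold change was -0.44 ± 0.24 (95% interval -1.01 to 0.12, n = 3 per group, limma adjusted p = 0.587). It shrank to -0.20 when HDAC3FF replicate 2 was left out and widened to -0.72 when HDAC3FF replicate 1 was left out, so a single control array moved the estimate by more than 1.5 times in either direction.

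The neighbours of these genes within the cluster varied less. Hoxd11 read 4.73, 4.86 and 5.02 in HDAC3ΔIEC arrays, against 4.86, 5.48 and 4.95 in HDAC3FF arrays, and its highest value again came from HDAC3FF replicate 2. Its log2 fold change was -0.23 ± 0.17 (n = 3 per group, limma adjusted p = 0.735), and -0.036 without HDAC3FF replicate 2. Hoxd12 lies between Hoxd11 and Hoxd13, and it read 4.56, 4.45 and 4.53 in HDAC3ΔIEC arrays, against 4.44, 4.25 and 4.60 in HDAC3FF arrays. Here HDAC3FF replicate 2 was the lowest of the 6 arrays, and the log2 fold change was 0.08 ± 0.11 (limma adjusted p = 0.877). Hoxd9 differed by -0.02 ± 0.09, and the remaining Hoxd genes Hoxd1, Hoxd3, Hoxd4 and Hoxd8 lay between -0.09 and 0.07. Of the 9 Hoxd genes, only Hoxd9 and Hoxd13 had a mean signal above the median gene of the array, so most were read from dim probe sets.

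The promoters of Hoxd10, Hoxd12 and Hoxd13 are shown as examples from this cluster. No Hox gene was called, and a link between promoter sequence and signal was not tested. RefSeq windows of GRCm38.p6, running 250 bases before the gene start to 50 after it, were available for 21 of the 37 members. CG dinucleotides, the sites of DNA methylation, are in capitals, and each sequence runs 5′ to 3′ on the strand of the gene. Hoxd10 is at chr2:74691641-74691940, Hoxd12 at chr2:74674763-74675062 and Hoxd13 at chr2:74667975-74668274, all on the plus strand.
Hoxd10: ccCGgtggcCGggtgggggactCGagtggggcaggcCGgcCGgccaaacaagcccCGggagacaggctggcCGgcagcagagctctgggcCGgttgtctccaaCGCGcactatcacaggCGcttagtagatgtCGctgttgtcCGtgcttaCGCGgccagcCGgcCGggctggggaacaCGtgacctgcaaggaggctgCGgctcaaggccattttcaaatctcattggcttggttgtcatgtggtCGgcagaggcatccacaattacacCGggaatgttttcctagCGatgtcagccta
Hoxd12: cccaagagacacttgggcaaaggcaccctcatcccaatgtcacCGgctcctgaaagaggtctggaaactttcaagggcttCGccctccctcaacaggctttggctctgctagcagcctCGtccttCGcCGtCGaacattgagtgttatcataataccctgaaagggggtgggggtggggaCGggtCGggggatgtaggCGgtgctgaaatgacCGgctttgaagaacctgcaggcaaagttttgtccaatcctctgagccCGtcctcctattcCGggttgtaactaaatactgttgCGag
Hoxd13: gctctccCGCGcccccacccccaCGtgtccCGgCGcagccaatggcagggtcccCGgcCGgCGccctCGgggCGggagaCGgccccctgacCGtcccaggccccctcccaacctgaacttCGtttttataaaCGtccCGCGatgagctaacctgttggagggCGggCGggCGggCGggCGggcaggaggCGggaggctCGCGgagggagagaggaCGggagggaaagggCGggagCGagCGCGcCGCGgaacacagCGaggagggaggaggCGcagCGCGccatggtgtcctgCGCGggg
The Hoxd13 window holds 37 CG dinucleotides, as many as or more than 95% of the 32851 promoter windows of all genes. The Hoxd10 window holds 22, at or above 78.5% of all windows, and the Hoxd12 window holds 13, at or above 63.7%. The windows of Hoxd11, which lies between Hoxd10 and Hoxd12, are not printed and hold 4 and 25. The median was 14.5 over the 24 windows of 22 Hox genes, which include Hoxb8, and 7 over all windows. A TATAAA motif, read on both strands, was found in 4 of the 24 Hox windows (16.7%), including that of Hoxd13, against 13.6% of all windows. TTTATNG, a motif of the Cdx factors that bind upstream of Hox genes, was found in 2 (8.33%), against 10.9% of all windows, and in none of the windows printed here. TTTATNG can overlap TATAAA read on the other strand. TGATNNAT, a motif of paired Hox and Pbx binding, was found in 4 (16.7%), against 8.85% of all windows. The Hoxb8 window is counted for each of these motifs, although Hoxb8 is not among the 37 members. These matches describe letters in short windows and do not show binding.

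**Figure D2:**
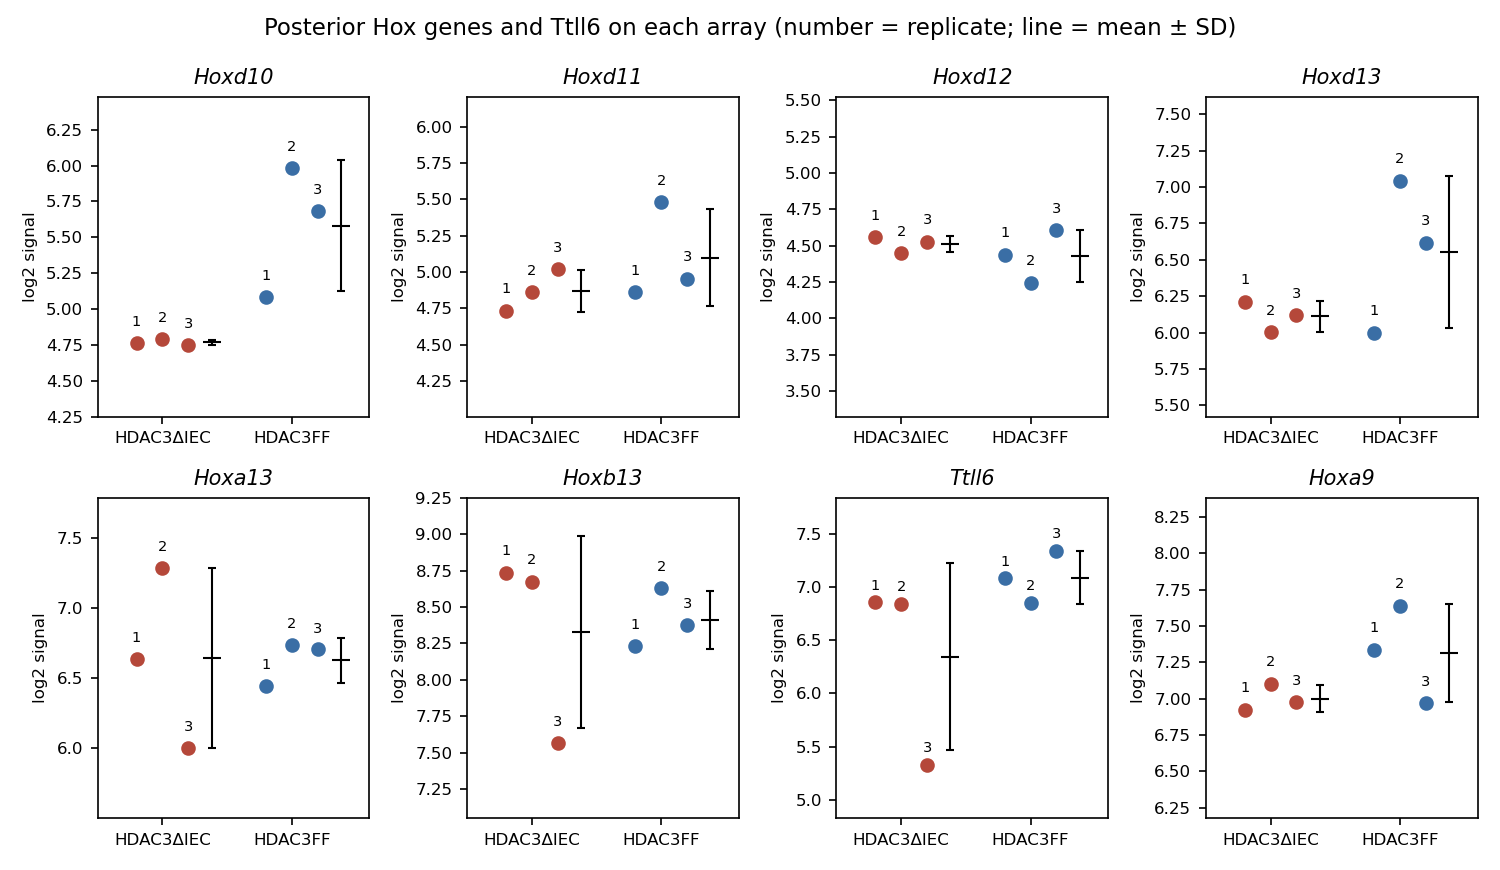
Log2 signal on each array, HDAC3ΔIEC left and HDAC3FF right, for Hoxd10, Hoxd11, Hoxd12, Hoxd13, Hoxa13, Hoxb13, Hoxa9 and Ttll6, a neighbour of the Hoxb cluster. Points are single mice, lines with bars are means with SD (n = 3 each), and the vertical scales differ between panels. Hoxd10 is the only one of these 8 genes in which the genotypes do not overlap.

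Hoxa13 and Hoxb13, the last genes of their clusters, had the widest spread among replicates of all Hox genes, with pooled within-group SDs of 0.470 and 0.488. The median within-group SD was 0.164 over the Hox genes and 0.138 over all genes. Hoxa13, which acts with Hoxd13 in the mouse hindgut, read 6.64, 7.29 and 6.00 in HDAC3ΔIEC arrays, against 6.44, 6.74 and 6.71 in HDAC3FF arrays. The HDAC3ΔIEC arrays held both the highest and the lowest value. The log2 fold change was 0.01 ± 0.29 (95% interval -0.67 to 0.70, n = 3 per group, limma adjusted p = 0.995), and it ranged between -0.31 and 0.34 when single arrays were left out.

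Its promoter window, at chr6:52260831-52261130 on the minus strand in the same build, is the richest in CG of those shown.
Hoxa13: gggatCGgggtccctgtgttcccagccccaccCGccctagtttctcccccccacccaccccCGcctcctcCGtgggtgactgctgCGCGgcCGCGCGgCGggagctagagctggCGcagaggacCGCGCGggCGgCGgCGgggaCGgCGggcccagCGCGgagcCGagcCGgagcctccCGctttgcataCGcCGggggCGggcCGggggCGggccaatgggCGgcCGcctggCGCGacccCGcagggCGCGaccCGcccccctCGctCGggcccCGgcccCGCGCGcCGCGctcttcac
It holds 45 CG dinucleotides, at or above 98.4% of all windows, and 81% of its bases are G or C.

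Hoxb13, a marker of distal colon and prostate, read 8.74, 8.67 and 7.56 in HDAC3ΔIEC arrays, against 8.23, 8.63 and 8.37 in HDAC3FF arrays. HDAC3ΔIEC replicate 3 stood below the other 5 arrays. The log2 fold change was -0.09 ± 0.30 (95% interval -0.80 to 0.63, n = 3 per group, limma adjusted p = 0.964), and the sign turned, to 0.29, when HDAC3ΔIEC replicate 3 was left out. The nearest protein-coding gene beyond Hoxb13 in the RefSeq table, Ttll6, a tubulin polyglutamylase of cilia, read 6.86, 6.85 and 5.33 in HDAC3ΔIEC arrays, against 7.08, 6.85 and 7.34 in HDAC3FF arrays. It was lowest on that same array, as was Hoxa13. For Ttll6 the log2 fold change was -0.75 ± 0.40 (limma adjusted p = 0.576), and -0.24 without HDAC3ΔIEC replicate 3. For these 3 genes the range within the HDAC3ΔIEC mice was wider than the difference between the genotype means. The labels do not say from which stretch of the large intestine each sample came.

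In the Hoxa cluster, 8 of 10 members were brighter than the median gene. Hoxa3, an anterior gene of neck and pharyngeal organs, read 5.89, 5.80 and 5.79 in HDAC3ΔIEC arrays, against 6.12, 6.13 and 5.94 in HDAC3FF arrays. The genotypes did not overlap, and the log2 fold change was -0.24 ± 0.09 (95% interval -0.45 to -0.03, n = 3 per group, limma adjusted p = 0.376). Hoxa9, a posterior gene best known for its role in blood progenitors and leukaemia, read 6.92, 7.10 and 6.98 in HDAC3ΔIEC arrays, against 7.34, 7.64 and 6.97 in HDAC3FF arrays. HDAC3FF replicates 1 and 2 were above every HDAC3ΔIEC array, and HDAC3FF replicate 3 was among them, so the genotypes overlapped. Its log2 fold change was -0.31 ± 0.17 (limma adjusted p = 0.572), with a range of -0.49 to -0.15 when single arrays were left out. Hoxa5, which the mouse lung and gut mesoderm use during development, differed by -0.17 ± 0.17. Hoxa7 differed by 0.14 ± 0.12 and Hoxa10 by 0.05 ± 0.12. The other Hoxa genes, Hoxa2, Hoxa4, Hoxa6 and Hoxa11, lay between -0.15 and 0.02.

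All 9 Hoxb members were brighter than the median gene. Hoxb9 read 7.51, 7.40 and 7.56 in HDAC3ΔIEC arrays, against 7.73, 7.84 and 7.58 in HDAC3FF arrays. The genotypes were separated by a narrow gap, and the log2 fold change was -0.23 ± 0.10 (n = 3 per group, limma adjusted p = 0.441). Hoxb7 went the other way, with 6.80, 6.92 and 7.01 in HDAC3ΔIEC arrays, against 6.55, 6.82 and 6.70 in HDAC3FF arrays. HDAC3ΔIEC replicate 1 lay below HDAC3FF replicate 2, so the genotypes overlapped, and the log2 fold change was 0.22 ± 0.10 (limma adjusted p = 0.501). Hoxb6, a central gene, averaged 8.04 ± 0.28 in HDAC3ΔIEC and 8.20 ± 0.27 in HDAC3FF cells (SD, n = 3 each). Hoxb5, a factor of enteric neural crest in the mouse, differed by -0.20 ± 0.15. Hoxb1, Hoxb2, Hoxb3 and Hoxb4 lay between -0.11 and 0.12. The 2 posterior members, Hoxb9 and Hoxb13, bracket a gap in the mouse cluster, which has no paralogues 10, 11 and 12.

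The Hoxc genes were the dimmest. None of the 9 exceeded the median gene, 7 were under the 25th percentile of gene means, and their means over the 6 arrays lay between 3.37 and 4.53. The files mark no probe set as below background, and whether these values follow RNA levels was not tested. Hoxc5 read 4.03, 3.97 and 4.18 in HDAC3ΔIEC arrays, against 3.90, 3.77 and 3.87 in HDAC3FF arrays, without overlap. Its log2 fold change was 0.21 ± 0.09 (n = 3 per group, limma adjusted p = 0.443). Hoxc6 read 4.04, 4.24 and 4.33 in HDAC3ΔIEC arrays, against 4.11, 3.83 and 3.83 in HDAC3FF arrays. The genotypes overlapped through HDAC3ΔIEC replicate 1, and the log2 fold change was 0.28 ± 0.12 (limma adjusted p = 0.444). Hoxc12 did not overlap either, but differed by only 0.12 ± 0.08 (limma adjusted p = 0.660). Hoxc4, Hoxc8, Hoxc9, Hoxc10, Hoxc11 and Hoxc13 lay between -0.06 and 0.09. Although 8 of 9 Hoxc estimates were above 0, 6 of the 9 genes had their highest value on a single array, HDAC3ΔIEC replicate 3. Over all genes, the 25th percentile of the signals was also highest on that array, at 4.15, against 4.06 to 4.11 on the others. Whether the Hoxc values follow this shift of dim signals was not tested.

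Seen array by array, Hox signals moved with single mice. Each gene was set against its own mean over the 6 arrays, and these deviations were averaged over the 37 members. The averages were 0.01, -0.07 and -0.02 for HDAC3ΔIEC replicates 1, 2 and 3, against -0.03, 0.11 and 0.00 for HDAC3FF replicates 1, 2 and 3. HDAC3FF replicate 2 thus stood highest, and it held the highest value for 13 of the 37 Hox genes, whereas HDAC3ΔIEC replicate 2 held the lowest value for 12. Among the 16 posterior genes the averages were -0.04, -0.02 and -0.11 in HDAC3ΔIEC, against -0.06, 0.22 and 0.02 in HDAC3FF. HDAC3FF replicate 2 held the highest value for 9 of these 16. HDAC3FF replicate 1, by contrast, lay with the HDAC3ΔIEC arrays, so this pattern did not separate the genotypes. Counts of highest and lowest values were not taken over all genes, so they do not show a trait particular to Hox genes. Across all genes the arrays had medians of 5.30 to 5.35 and 25th percentiles of 4.06 to 4.15, highest on HDAC3ΔIEC replicate 3. They correlated pairwise at 0.982 to 0.996, and the all-gene fold changes centred on 0.01.

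**Figure D3:**
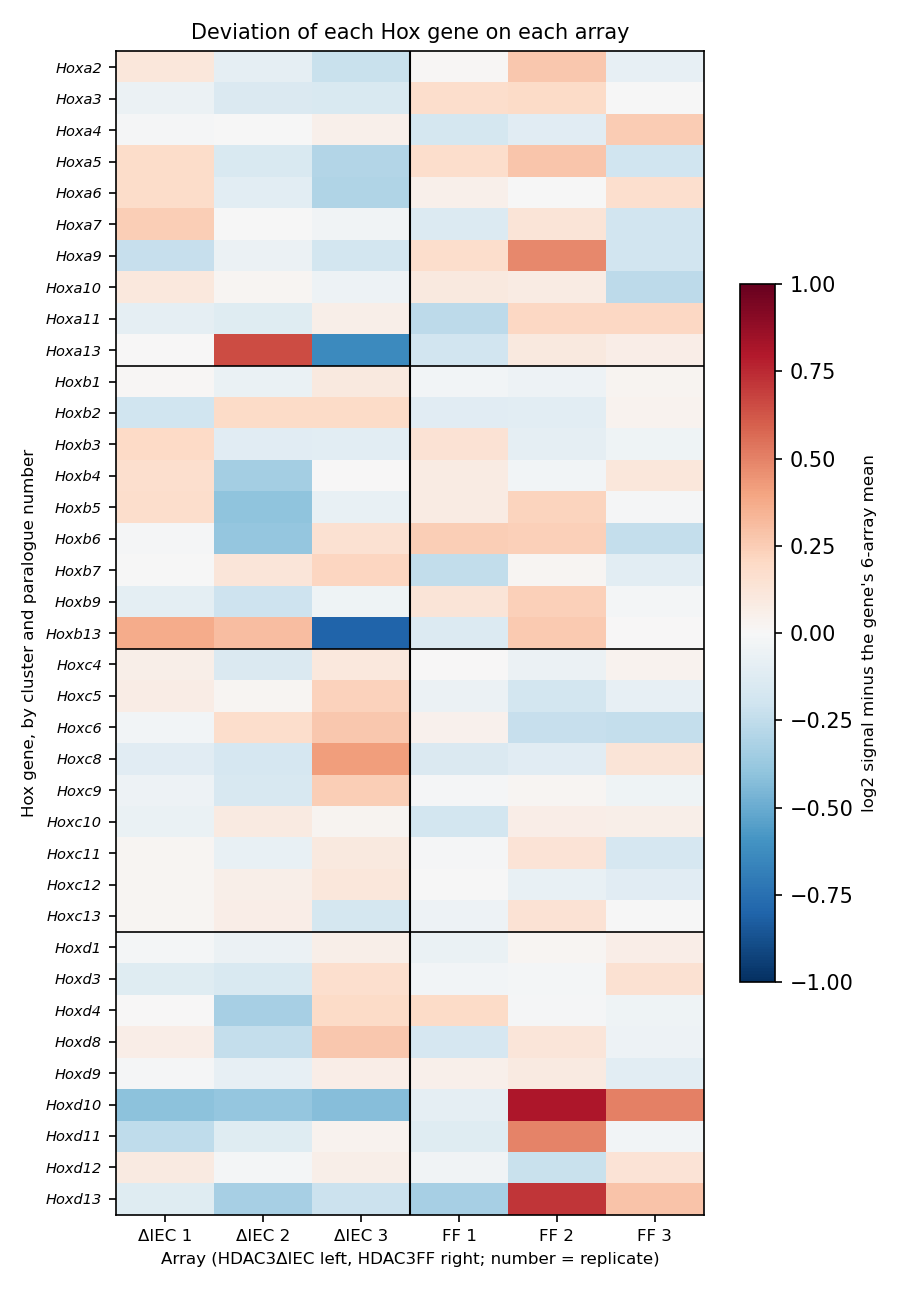
Deviation of each of the 37 Hox genes (rows, by cluster and paralogue number) from its own mean over the 6 arrays (columns, HDAC3ΔIEC left and HDAC3FF right), in log2 units by colour. HDAC3FF replicate 2 is high for Hoxd10, Hoxd13, Hoxd11 and Hoxa9, while HDAC3ΔIEC replicate 3 is low for Hoxa13 and Hoxb13.

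Genes at the borders of the clusters gave no call either. Of the 16 protein-coding genes nearest to the clusters, with 2 on each side, 15 were measured. None passed the test (limma, adjusted p), against 0.701% of all genes. None had an unadjusted p under 0.05, against 11.2%, and none had genotypes without overlap, against 16.2%. The median log2 fold change of the 15 was 0.03, with Ttll6 lowest at -0.75 and Mtx2, a mitochondrial import protein next to Hoxd1, highest at 0.20 ± 0.24. Evx1 and Evx2, homeobox genes at the posterior ends of the Hoxa and Hoxd clusters, differed by 0.03 ± 0.07 and 0.13 ± 0.10. Of 18 noncoding RNAs listed for the clusters, 4 were measured, and 0 passed the test or had an unadjusted p under 0.05. Hottip, which in human cells helps to keep the posterior HOXA genes active, averaged 5.21 ± 0.13 in HDAC3ΔIEC and 5.08 ± 0.10 in HDAC3FF cells (SD, n = 3 each). Hoxd3os1, an antisense transcript in the Hoxd cluster, differed by 0.06 ± 0.11.

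Hox proteins bind DNA with partners of the Pbx and Meis families. Of 9 such cofactor genes, 8 were measured and 0 passed the test, with a median log2 fold change of 0.06. At an unadjusted p under 0.05 there were 2, against 11.2% of all genes. Pbx2 read 7.57, 7.64 and 7.28 in HDAC3ΔIEC arrays, against 7.01, 7.25 and 7.08 in HDAC3FF arrays. It was higher in every HDAC3ΔIEC array, by 0.38 ± 0.12 on the log2 scale, and missed the threshold at a limma adjusted p of 0.275. Meis2, read from a dim probe set, differed by 0.26 ± 0.09, again without overlap (limma adjusted p = 0.348).

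The Polycomb and Trithorax genes were well measured, with 41 of 42 above the median gene, and 0 of the 42 passed the test. Among 28 Polycomb genes the median log2 fold change was -0.06, with 12 above 0 and 16 below, and 3 had an unadjusted p under 0.05. Among 14 Trithorax genes the median was -0.05, with 1 gene at that p. Over all genes the share at that p was 11.2%. Mtf2, a subunit that brings Polycomb repressive complex 2 to CG-rich DNA, came closest. It read 7.55, 7.72 and 7.79 in HDAC3ΔIEC arrays, against 8.39, 8.37 and 8.18 in HDAC3FF arrays. The genotypes were clearly apart, and the log2 fold change was -0.62 ± 0.10 (n = 3 per group, limma adjusted p = 0.0554). When single arrays were left out its limma adjusted p ranged from 0.0280, without HDAC3FF replicate 3, to 0.216, without HDAC3ΔIEC replicate 2. Jarid2, a partner of the same complex, differed by -0.29 ± 0.11 (limma adjusted p = 0.385). Pcgf3, the remaining Polycomb gene at an unadjusted p under 0.05, was higher by 0.33 ± 0.13, without overlap (limma adjusted p = 0.389). Kdm6b, a demethylase that removes the Polycomb mark, read 7.95, 8.18 and 7.86 in HDAC3ΔIEC arrays, against 7.18, 7.46 and 7.65 in HDAC3FF arrays. Its log2 fold change was 0.57 ± 0.14, without overlap (limma adjusted p = 0.164). Wdr5, a core subunit of Trithorax complexes, differed by -0.26 ± 0.12 (limma adjusted p = 0.513).

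Retinoic acid switches on Hox genes in the embryo. Of 17 genes of its synthesis, breakdown and reception, all measured, 0 passed the test, and the median log2 fold change was 0.03. An unadjusted p under 0.05 was found for 2, against 11.2% of all genes. Dhrs3, which returns retinaldehyde to retinol, averaged 8.01 ± 0.31 in HDAC3ΔIEC and 8.69 ± 0.27 in HDAC3FF cells (SD, n = 3 each), with a limma adjusted p of 0.206. Aldh1a1, which makes retinoic acid, averaged 11.02 ± 0.20 in HDAC3ΔIEC and 11.62 ± 0.34 in HDAC3FF cells, with a limma adjusted p of 0.256. Neither gene had overlapping genotypes. Of 11 genes of axial signals, all measured, 0 passed as well, with 1 at an unadjusted p under 0.05. Ihh, the hedgehog ligand of mature colonic epithelium, read 8.50, 8.82 and 8.50 in HDAC3ΔIEC arrays, against 7.92, 8.16 and 7.59 in HDAC3FF arrays. All HDAC3ΔIEC arrays were higher, with a log2 fold change of 0.72 ± 0.16 (n = 3 per group, limma adjusted p = 0.122). Bmp2, a ligand of the upper crypt, differed by -0.40 ± 0.17 (limma adjusted p = 0.449).

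Other transcription factors that set gut region likewise held no call, with 0 of the 19 measured of 21 listed and a median log2 fold change of 0.07. There were 2 at an unadjusted p under 0.05, against 11.2% of all genes. Cdx2, the factor that keeps intestinal identity and drives Hox genes in the embryo, read 8.76, 8.93 and 8.69 in HDAC3ΔIEC arrays, against 9.03, 9.07 and 8.93 in HDAC3FF arrays. The highest HDAC3ΔIEC array lay just above the lowest HDAC3FF array, so the genotypes overlapped narrowly. The log2 fold change was -0.22 ± 0.10 (n = 3 per group, limma adjusted p = 0.465). Its relative Cdx1 differed by 0.02 ± 0.12 (limma adjusted p = 0.986). Foxa2, a factor of foregut and goblet cells, read 6.35, 6.06 and 6.29 in HDAC3ΔIEC arrays, against 6.42, 7.26 and 6.56 in HDAC3FF arrays. It was highest on HDAC3FF replicate 2, the array on which Hoxd10, Hoxd11, Hoxd13 and Hoxa9 were also highest. The difference between genotypes was -0.51 ± 0.22 on the log2 scale (limma adjusted p = 0.436), and -0.26 without HDAC3FF replicate 2. Nr2f2, an orphan nuclear receptor, differed by -0.33 ± 0.12, without overlap (limma adjusted p = 0.351).

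Genes typical of the small intestine and of the colon covered a wider range of fold changes than the Hox genes, although none of them passed the test either. The lists were chosen with earlier results of these data known, so the ranges are not a like comparison. They are also brighter: 15 of the 18 small intestinal and all 14 measured colonic genes were above the median gene, against 19 of 37 Hox genes. Of 18 small intestinal genes, all measured, 9 had an unadjusted p under 0.05, against 11.2% of all genes. For 8 the genotypes did not overlap, against 16.2% of all genes. The log2 fold changes of the 18 ranged between -1.63 and 2.23. The ileal bile acid transporter Slc10a2 read 9.74, 8.92 and 8.75 in HDAC3ΔIEC arrays, against 10.85, 10.26 and 11.19 in HDAC3FF arrays. Its log2 fold change was -1.63 ± 0.31 (n = 3 per group, limma adjusted p = 0.0807). Fabp6, which binds bile acids inside ileal cells, differed in the opposite direction, with 12.51, 12.35 and 11.44 in HDAC3ΔIEC arrays, against 10.35, 10.58 and 8.70 in HDAC3FF arrays. The difference was 2.23 ± 0.51 on the log2 scale (limma adjusted p = 0.125, and 0.0459 without HDAC3FF replicate 3 to 0.392 without HDAC3ΔIEC replicate 2). Mttp, which loads fat onto lipoproteins, differed by 1.58 ± 0.31 (limma adjusted p = 0.0877, and 0.0354 without HDAC3ΔIEC replicate 3 to 0.312 without HDAC3ΔIEC replicate 2). These genes are all used in the small intestine, and they did not differ in a common direction.

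Of 15 colonic genes, 14 were measured, with a median log2 fold change of -0.27, 6 above 0 and 8 below. Of these, 5 had an unadjusted p under 0.05, against 11.2% of all genes. For 7 the genotypes did not overlap, against 16.2% of all genes. Among the 7, Aqp8, Krt20 and Car1 were higher in HDAC3ΔIEC, by 0.69 ± 0.22, 0.41 ± 0.16 and 0.17 ± 0.08. Retnlb, Slc26a3, Hsd11b2 and Scnn1a were lower. Retnlb, a goblet cell antibacterial protein, read 11.34, 10.91 and 10.55 in HDAC3ΔIEC arrays, against 12.22, 11.97 and 12.06 in HDAC3FF arrays. It was lower in every HDAC3ΔIEC array by a wide margin, with a log2 fold change of -1.15 ± 0.19 (n = 3 per group, limma adjusted p = 0.0568, and 0.0472 without HDAC3ΔIEC replicate 1 to 0.241 without HDAC3ΔIEC replicate 2). Slc26a3, the chloride exchanger of surface colonocytes, differed by -0.44 ± 0.08 (limma adjusted p = 0.0819).

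**Figure D4:**
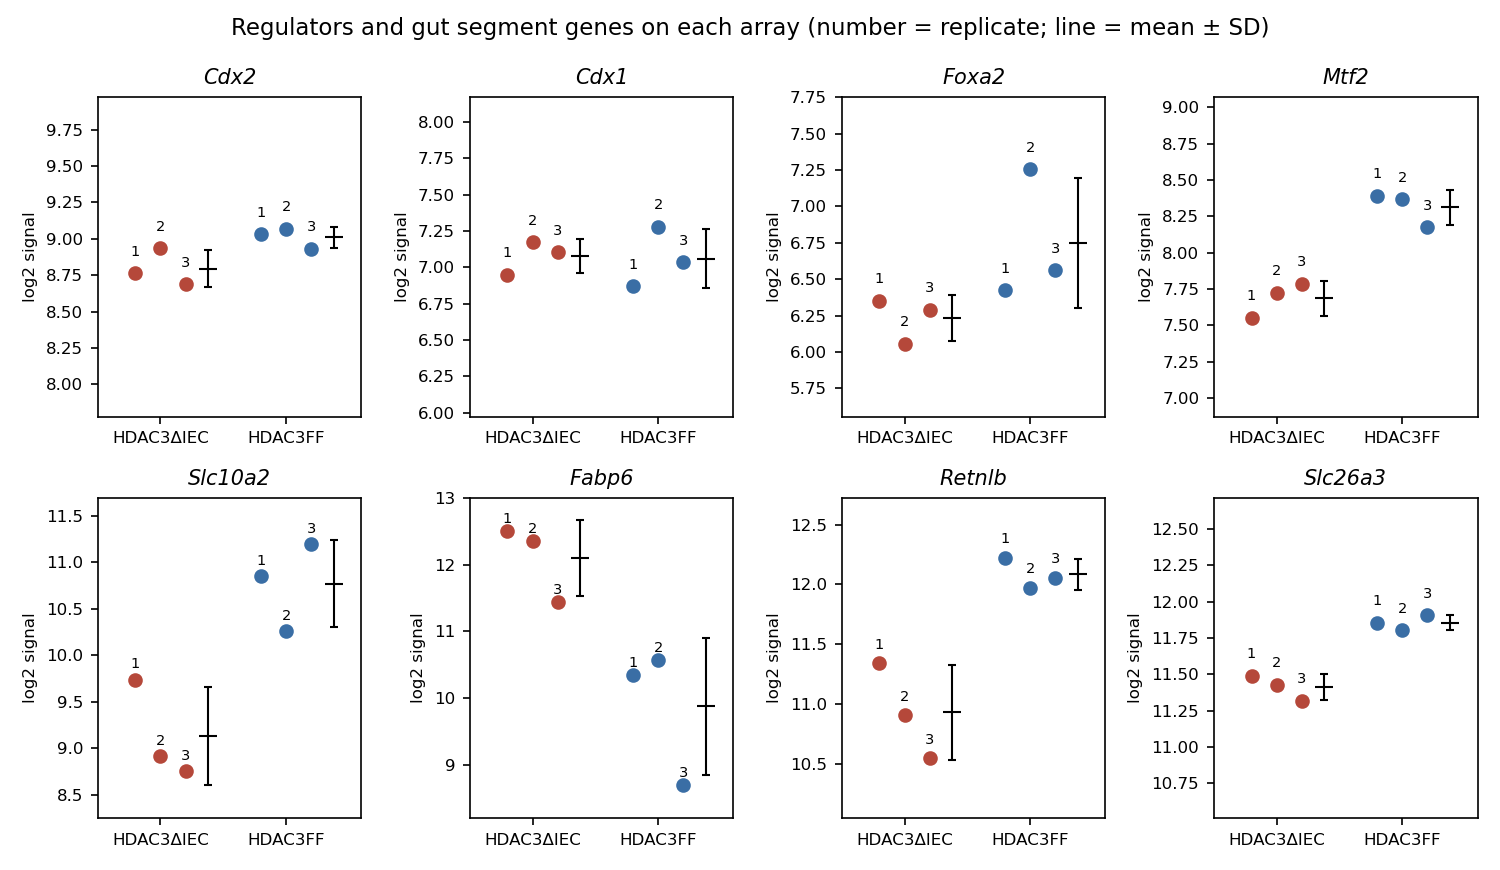
Log2 signal on each array, HDAC3ΔIEC left and HDAC3FF right, for the regional factors Cdx2, Cdx1 and Foxa2, the Polycomb subunit Mtf2 and the segment genes Slc10a2, Fabp6, Retnlb and Slc26a3. Points are single mice, lines with bars are means with SD (n = 3 each), and the vertical scales differ between panels. The genotypes overlap for Cdx1 and narrowly for Cdx2, whereas Foxa2, Mtf2, Slc10a2, Fabp6, Retnlb and Slc26a3 do not overlap.

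Mesenchymal cells and enteric neurons also use Hox genes, so their markers were read on the same arrays. Over 6 lists of fibroblast and muscle, endothelial, neural, T and NK, B and plasma, and myeloid genes, 87 were measured and 17 exceeded the median gene. None was higher in HDAC3ΔIEC at an adjusted p under 0.05 in limma, and 1, the macrophage complement gene C1qa, was lower (log2 fold change -1.71 ± 0.19, adjusted p = 0.0204). C1qb and C1qc, which encode the other chains of the same complement protein, differed by 0.07 ± 0.10 and -0.11 ± 0.11. The macrophage marker Cd68 differed by 0.51 ± 0.13 (limma adjusted p = 0.174), and Cd14, also on the myeloid list, by -0.40 ± 0.16 (limma adjusted p = 0.424). The myeloid genes thus differed in both directions. The C1qa call was lost when HDAC3FF replicate 1, HDAC3ΔIEC replicate 2 or HDAC3ΔIEC replicate 3 was left out, with limma adjusted p of 0.0633, 0.123 and 0.0736. The 18 fibroblast and muscle genes had array means of 5.03 to 5.13 in HDAC3ΔIEC and 4.96 to 5.21 in HDAC3FF cells. The 8 neural genes had array means of 4.74 to 4.80 in HDAC3ΔIEC and 4.55 to 4.69 in HDAC3FF cells. The neural ranges were apart, higher in HDAC3ΔIEC, with 7 genes above 0, 1 below and a median log2 fold change of 0.12. Ret differed by 0.60 ± 0.13, without overlap (limma adjusted p = 0.106), and Snap25 by 0.32 ± 0.17 (limma adjusted p = 0.581). The fibroblast and muscle ranges overlapped, with 11 genes above 0, 7 below and a median of 0.02. Among them Vim differed by 0.49 ± 0.19, without overlap (limma adjusted p = 0.389). The 17 myeloid genes had array means of 4.41 to 4.50 in HDAC3ΔIEC and 4.51 to 4.56 in HDAC3FF cells. That gap includes C1qa. Over the myeloid genes the median difference was 0.04 on the log2 scale, with 9 genes above 0 and 8 below. The 13 endothelial genes had means of 4.36 to 4.39 in HDAC3ΔIEC and 4.31 to 4.42 in HDAC3FF cells. The 17 T and NK genes had means of 4.18 to 4.28 in HDAC3ΔIEC and 4.20 to 4.27 in HDAC3FF cells, and the ranges overlapped. The 14 B and plasma genes had means of 4.91 to 4.92 in HDAC3ΔIEC and 4.87 to 4.99 in HDAC3FF cells. The 8 epithelial markers averaged at least 11.60 on every array. With no detection calls, no marker can be put at 0, and the part of other cells in the Hox signals was not tested.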

How the data were processed

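Total RNA of each mouse was hybridised to 1 Affymetrix array, and the design text gives 3 biological replicates per genotype. The authors deposited a log2 signal for each probe set on each array, judged from the range of the values. The submitters' processing notes name Affymetrix Power Tools. No source used here gives its version, the background correction or the normalization, and no value is marked as below background. Arrays carry no read depth, so their number limits the precision.

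Of 24939 probe sets, 21105 name 1 gene, 1254 name several and 2580 have none listed in the platform annotation. Entrez numbers of 21022 matched RefSeq (GRCm38.p6). The brightest probe set of each gene was kept, giving 19533 genes. At most a share of 0.00133 of the values was equal between any pair of arrays. The genotypes were compared, HDAC3ΔIEC minus HDAC3FF, with lmFit and eBayes of limma 3.58.1 (R 4.3.3, prior df 3.26) on the values as deposited, two-sided, with Benjamini-Hochberg adjustment over all genes and no covariate. Intervals cover 95%. Exact permutation tests and summaries used Python 3.11.15 with SciPy 1.17.1 and pandas 2.3.3. The procedure was tested on simulated data.

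Members and lists were chosen with earlier results of these data known. Array values were due for called members, for members without overlap and with a log2 fold change of at least 0.3, and for the 2 with the widest replicate spread. Of each of the 10 lists of cofactors, regulators and regional genes, the 2 with the smallest p were named, together with Hdac3, Epcam, Vil1, Cdx1 and Cdx2. Of the genes beside a cluster, Evx1, Evx2, Ttll6 and Mtx2 were named. Other genes of the cell marker lists were named after their values were seen, and not every list has its 2 genes of smallest p named. Array values of the other Hox genes, Fabp6 and C1qa were chosen after their values were seen. Further genes of the 10 lists, among them Pcgf3 and Aqp8, were also named after their values were seen. Alternatives covered a replicate block, priors, array weights, scaling, dim filters, probe set averaging, adjustment, threshold and leaving out each array.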

Additional observations from a re-analysis of the deposited data

How the results depend on the processing

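Over every alternative tried, 0 Hox genes were called, and of the 135 genes in the 10 lists of cofactors, regulators and regional genes none was called apart from 3 with an intensity trend in the prior, 5 with array weights, 1 after quantile normalization, 1 and 3 with dim genes removed below the 25th percentile and the median, 6 at an adjusted p under 0.10, and 0 to 5 when single arrays were left out. Named among them, Retnlb passed with the trend, array weights, quantile normalization and both dim filters (adjusted p of 0.0304 to 0.0487), Mttp and Slc10a2 with the trend and the filter at the median, and Mtf2, Mttp and Fabp6 with array weights (0.0203, 0.0327 and 0.0436). The count over all genes, 137, was less stable. It was 12 with the replicate block, 357 with array weights, 90 after adjustment over all probe sets, 321 at an adjusted p under 0.10, and 13 to 430 when single arrays were left out, with 13 without HDAC3FF replicate 1 and 430 without HDAC3FF replicate 3. The block is only a check, since the labels do not say that the numbers pair the mice. Deviations of same-numbered mice correlated at -0.0242, -0.0651 and -0.198. These values show no shared shift but cannot exclude a pairing. With the block the adjusted p was 0.103 for C1qa, 0.186 for Mtf2 and 0.105 for Retnlb, and the cause of the other shifts was not tested.

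The Hox median of -0.02 was -0.079 and -0.086 with the 2 dim filters, which keep 30 and 19 members, and -0.05 to 0.01 when single arrays were left out. The posterior median of -0.04 ranged over -0.09 to 0.01. Hoxd10 stayed below 0 throughout, with an adjusted p of 0.0660 to 0.433, and the filter at the median signal removes it. Estimates near 0 changed sign: with array weights Hoxb13 was 0.11, Hoxc11 -0.022, Hoxc4 -0.0035 and Hoxc9 -0.039, after quantile normalization Hoxb3 was 0.0027, Hoxc4 -0.014 and Hoxd9 0.0076, and after centring Hoxb3 was 0.0010.

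Leaving out single arrays changed the sign of further estimates, with these ranges. Among Hoxa genes they were -0.31 to 0.34 for Hoxa13, -0.066 to 0.11 for Hoxa10 and -0.060 to 0.15 for Hoxa4. Among Hoxb genes they were -0.29 to 0.29 for Hoxb13, -0.12 to 0.057 for Hoxb3, -0.23 to 0.031 for Hoxb4 and -0.012 to 0.070 for Hoxb1. Among Hoxc genes they were -0.038 to 0.090 for Hoxc4, -0.099 to 0.20 for Hoxc8, -0.092 to 0.11 for Hoxc9, -0.046 to 0.078 for Hoxc10, -0.049 to 0.11 for Hoxc11 and -0.10 to 0.014 for Hoxc13. Among Hoxd genes they were -0.053 to 0.014 for Hoxd1, -0.21 to 0.053 for Hoxd4, -0.052 to 0.20 for Hoxd8, -0.081 to 0.019 for Hoxd9 and -0.0092 to 0.17 for Hoxd12. For other genes they were -0.080 to 0.12 for Cdx1, -0.11 to 0.015 for Epcam, -0.039 to 0.12 for Hoxd3os1 and -0.091 to 0.42 for Mtx2.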
